A study of Mus musculus with 6 samples.

Results

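The 10 genes described here encode the liver receptor for the hormone FGF19, the adaptors that carry its signal to the ERK kinase cascade, and the inhibitors and transcription factor by which that cascade is known to restrain or report its own activity. They were chosen by name, with earlier results of these data known, as Fgfr4, Klb, Frs2, Ptpn11, Spry2, Spry4, Spred1, Dusp4, Dusp6 and Etv5. All 10 were among the 23284 genes listed in the count files. All 10 also passed the filter on low counts, which kept 12559 genes for testing. RNA had been sequenced from livers of 6 C57BL/6 mice, 8 weeks old and fasted overnight, of which 3 received vehicle and 3 received FGF19 at 1 mg/kg, and the livers were taken after 6 h of further fasting. Each library came from a single mouse, so n is 3 mice in each group. FGF19 is the human hormone, whose mouse counterpart is FGF15, and the study's methods describe its mice as male.

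FGF19 leaves the ileum after a meal and acts on hepatocytes through FGFR4, a receptor tyrosine kinase, which needs the single-pass membrane protein beta-Klotho (Klb) as co-receptor for this hormone. The activated receptor phosphorylates the docking protein FRS2, which recruits the adaptor GRB2 and the phosphatase SHP2 (Ptpn11), and RAS, RAF, MEK and ERK follow in turn. Active ERK is known to switch on a small set of genes that oppose it, among them the Sprouty and Spred inhibitors and the dual-specificity phosphatases, together with ETS transcription factors of the PEA3 group such as Etv5.

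Of the feedback and output genes Spry4, Etv5 and Dusp6 rose, and no gene of the receptor or its adaptors passed the test. Spry4, Etv5 and Dusp6 were higher in FGF19-treated livers, by 2.89-fold, 2.44-fold and 1.75-fold, and passed the test. Dusp4 was 2.35-fold higher without passing it, and Klb, at 0.740 of its vehicle level, did not pass it either. Of the 10 genes, 3 were therefore higher at an adjusted p under 0.05 and 0 were lower, where 4.56% of all genes tested were higher and 2.84% were lower by the same rule. Tests were edgeR's quasi-likelihood tests, with p-values adjusted by the Benjamini-Hochberg method over the whole table. At an unadjusted p under 0.05 the higher genes were the same 3 and Dusp4, and Klb was the only lower gene, where 11.6% of all genes tested were higher and 11.3% lower at that threshold. The median log2 fold change was 0.30 for the 10 genes and -0.00 for all genes tested. Since the 10 genes were chosen with earlier results of these data known, these comparisons are descriptions and do not test the set.

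In 4 of the 10 genes every FGF19-treated mouse lay above every vehicle-treated mouse, and in 1, Klb, every FGF19-treated mouse lay below, where 14.5% and 13.8% of all genes tested were separated in these directions. Because whole liver was sequenced, fewer cells of a type and less RNA per cell cannot be told apart.

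**Figure D1:**
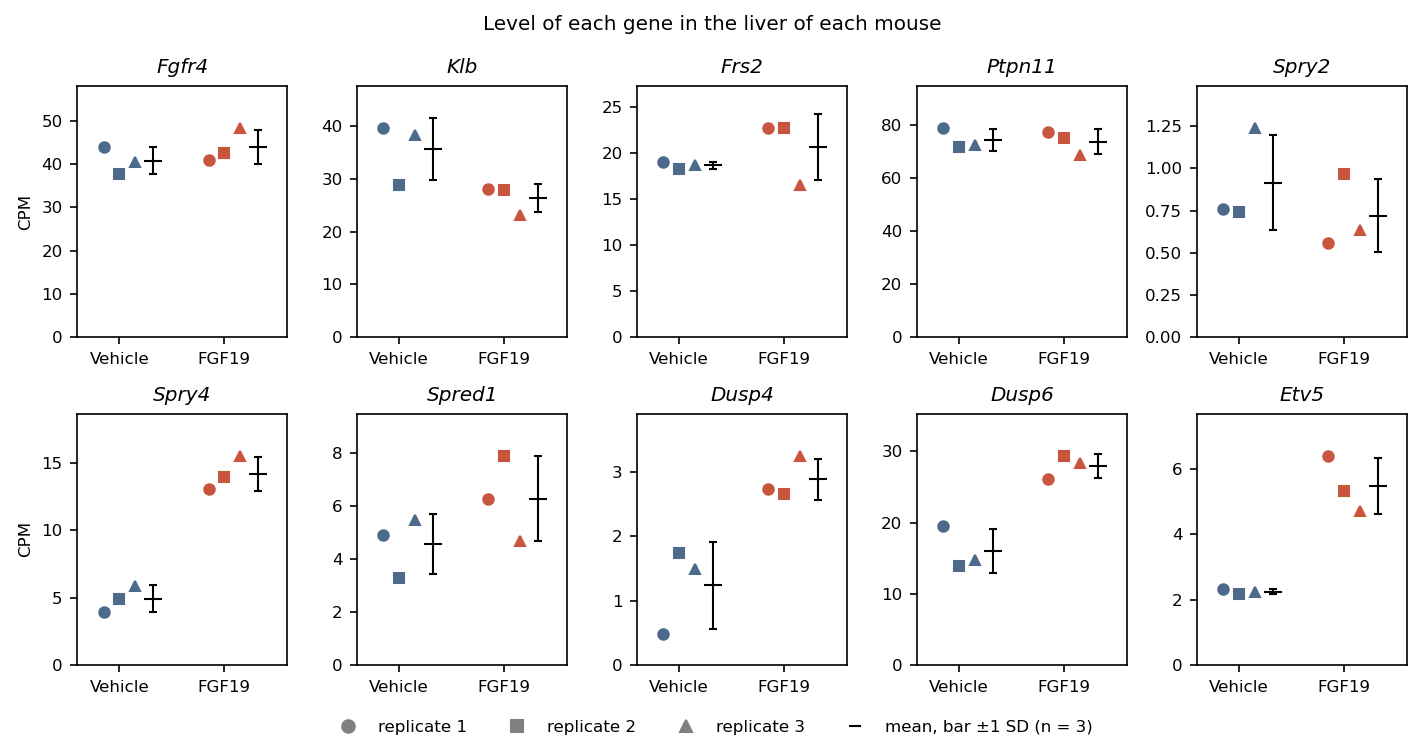
Level of the 10 genes in each mouse, as library-scaled counts (CPM) on axes that start at 0, with 3 vehicle-treated mice in blue and 3 FGF19-treated mice in red, and with the mean and SD of each group in black. The groups do not touch for Spry4, Dusp4, Dusp6, Etv5 and Klb, and overlap for the other 5 genes.

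The total count was between 18994654 and 22920056 per library. Levels are given as CPM, which is the count scaled to the library total and to edgeR's TMM factor (between 0.964 and 1.03), and, where genes are compared with each other, as RPKM, which is the CPM divided by the exon length in kilobases. All 9 hepatocyte markers were tested, of which Fgb was higher. Their summed level was between 104583 and 110239 CPM in vehicle-treated and between 105133 and 116084 CPM in FGF19-treated mice. Most of this sum was Alb, at 69275 ± 1104 CPM with vehicle and 66313 ± 2729 CPM with FGF19 (SD, n = 3). Fgb rose from 4279 ± 590 to 10915 ± 513 CPM (SD, n = 3). The markers other than Fgb had log2 fold changes between -0.35 (Cps1) and 0.39 (Tat), and none was called. The groups did not overlap for Cps1 and Hnf4a (-0.31), which were lower. Cyp7a1, the bile acid synthesis gene known to be repressed by FGF19, fell from 268 ± 44.1 CPM to 11.4 ± 1.75 CPM (SD, n = 3), with a log2 fold change of -4.56 (edgeR, adjusted p = 9.41e-07). None of the 10 genes shares exon positions with another gene in the annotation of the count files.

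Fgfr4, on the plus strand of chromosome 13 of mouse build mm9 from 55254179 to 55270120, encodes the receptor tyrosine kinase for FGF19 and had the highest level of Fgfr1 to Fgfr4 in these livers. Its level was 44.0, 37.8 and 40.5 CPM in vehicle replicates 1, 2 and 3 and 40.9, 42.5 and 48.3 CPM in FGF19 replicates 1, 2 and 3. The groups overlapped, and the log2 fold change was 0.11 (95% interval -0.12 to 0.33, edgeR, adjusted p = 0.583). A rise of more than 1.26-fold or a fall to less than 0.921 of the vehicle level lies outside this interval. Measured per exon length, Fgfr4 made up 55.2 ± 2.77% of the summed level of Fgfr1 to Fgfr4 in vehicle-treated and 56.1 ± 2.56% in FGF19-treated mice (SD, n = 3). Fgfr2 and Fgfr3 were lower, at 4.48 ± 1.19 and 4.65 ± 0.313 RPKM with vehicle (SD, n = 3) against 13.0 ± 0.987 RPKM for Fgfr4, and Fgfr1 was at 1.40 ± 0.201 RPKM. Fgfrl1, which encodes a related receptor without a tyrosine kinase domain and was left out of this sum, was at 14.4 ± 0.684 RPKM with vehicle and 13.5 ± 1.28 RPKM with FGF19 (SD, n = 3) and was not called.

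Klb, on the plus strand of chromosome 5 from 65739650 to 65775242, encodes the co-receptor. It was at 39.6, 28.8 and 38.4 CPM in vehicle replicates 1 to 3 and at 28.0, 27.9 and 23.2 CPM in FGF19 replicates 1 to 3. The groups did not overlap, but vehicle replicate 2 was close to FGF19 replicates 1 and 2. Klb had a log2 fold change of -0.43 (95% interval -0.74 to -0.13), with an unadjusted p of 0.0103 and an adjusted p of 0.0905 in edgeR. Leaving out vehicle replicate 2 took the log2 fold change to -0.57 and the adjusted p to 0.0329, and with edgeR's likelihood ratio test the adjusted p was 0.0465. In the other 12 alternatives the adjusted p lay above 0.05, up to 0.284 without vehicle replicate 3.

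The ratio of co-receptor to receptor transcript, per exon length, was chosen for description after the values had been seen. It was 0.825, 0.698 and 0.866 in vehicle replicates 1 to 3 and 0.627, 0.600 and 0.439 in FGF19 replicates 1 to 3. The 3 FGF19-treated mice were below the 3 vehicle-treated mice. The two-sided exact permutation p of 0.1 is the smallest that 3 against 3 can give and only restates this separation, which was known when the ratio was chosen. The other Klotho genes, Kl and Lctl, were below the filter on low counts, at means of 0.0353 and 0.0165 CPM in vehicle-treated mice, under the level that 3 counts would give (between 0.136 and 0.159 CPM per library). Lctl shares exon positions with Zwilch, and reads on shared positions were not counted, so its level may be understated. Neither Klb nor Fgfr4 alone passed the test over all genes.

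Neither adaptor gene passed the test. Frs2, the docking protein gene on the minus strand of chromosome 10 from 116507183 to 116585530, was at 19.0, 18.2 and 18.7 CPM in vehicle replicates 1 to 3 and at 22.7, 22.7 and 16.5 CPM in FGF19 replicates 1 to 3. FGF19 replicates 1 and 2 were above the vehicle-treated mice and FGF19 replicate 3 was below them. Its log2 fold change was 0.15 (95% interval -0.15 to 0.45, edgeR, adjusted p = 0.564), and without FGF19 replicate 3 it was 0.29 with an adjusted p of 0.0570. Ptpn11, the SHP2 gene on the minus strand of chromosome 5 from 121580542 to 121641406, was at 79.0, 71.7 and 72.6 CPM with vehicle and at 77.5, 75.3 and 68.6 CPM with FGF19. Its log2 fold change of -0.01 had the narrowest interval of the 10 genes, from -0.21 to 0.18 (edgeR, adjusted p = 0.952). Its sign was positive in 2 of 14 alternatives, none of which called it.

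Dusp6 encodes a phosphatase of the cytoplasm that is selective for ERK, and lies on the plus strand of chromosome 10 from 98725865 to 98730123. Its level was 19.5, 13.8 and 14.7 CPM in vehicle replicates 1 to 3 and 26.1, 29.4 and 28.4 CPM in FGF19 replicates 1 to 3. All 3 FGF19-treated mice were above the highest vehicle-treated mouse. Its log2 fold change was 0.80 (standard error 0.137, edgeR, adjusted p = 0.00878), or 1.75-fold with a 95% interval from 1.41 to 2.16. It stayed under an adjusted p of 0.05 in 13 of 14 alternatives, and was 0.0527 without vehicle replicate 3, at a log2 fold change of 0.75. Dusp6 was the most abundant of the ERK-selective phosphatase genes of the cytoplasm, at 82.6 ± 5.38% of the level of Dusp6, Dusp7 and Dusp9 together per exon length with vehicle and 90.4 ± 1.24% with FGF19 (SD, n = 3). Dusp7 was at 1.14 ± 0.259 RPKM with vehicle and 0.989 ± 0.181 RPKM with FGF19 (SD, n = 3) and was not called.

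Dusp4 encodes a phosphatase of the nucleus that acts on ERK and other MAP kinases, and lies on the plus strand of chromosome 8 from 35870664 to 35882948. Its counts were 10, 33 and 30 reads in vehicle replicates 1 to 3 and 59, 58 and 72 reads in FGF19 replicates 1 to 3, which corresponds to 0.476, 1.75 and 1.49 CPM and to 2.74, 2.66 and 3.26 CPM. The 3 FGF19-treated mice were above the 3 vehicle-treated mice, among which replicate 1 was far lower than the other two. Its log2 fold change of 1.23 (95% interval 0.42 to 2.05) had an unadjusted p of 0.00748 and an adjusted p of 0.0761 in edgeR. At p under 0.01, the threshold of the study, 4 of the 10 genes were higher and 0 were lower, with Dusp4 as the additional gene, where 6.2% of all genes tested were higher and 4.98% were lower. DESeq2 gave Dusp4 an adjusted p of 0.0221 and edgeR's likelihood ratio test one of 0.0113, and none of the 6 fits without a library called it (adjusted p between 0.0620 and 0.162). Without vehicle replicate 1 the log2 fold change was 0.84. The spread of the vehicle-treated mice was 54.3% of their mean, where counting error at this depth gives 20.3%, and since both reads of a pair were counted, that counting error is a lower limit.

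**Figure D2:**
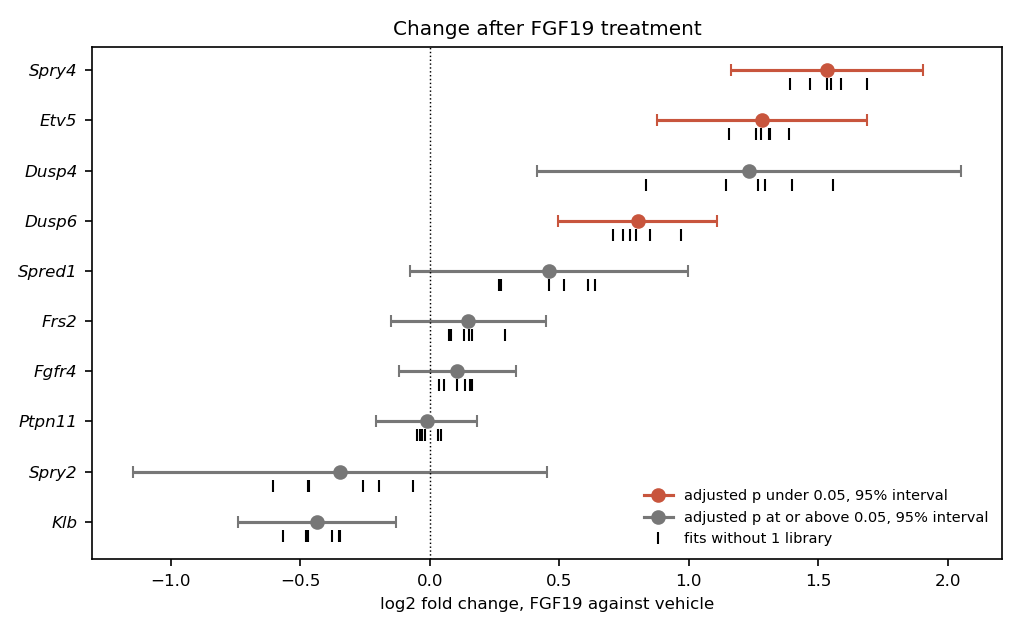
Log2 fold change of the 10 genes after FGF19 treatment, with circles for the fit to all 6 libraries, horizontal bars for the 95% interval and ticks for the 6 fits that each leave out 1 library. Spry4, Etv5 and Dusp6, in red, have an adjusted p under 0.05, and their intervals begin at 1.16, 0.88 and 0.50.

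Etv5, on the minus strand of chromosome 16 from 22381386 to 22439643, encodes an ETS transcription factor of the PEA3 group, which acts at the nuclear end of the FGF pathway. Its level was 2.33, 2.17 and 2.23 CPM in vehicle replicates 1 to 3 and 6.42, 5.33 and 4.71 CPM in FGF19 replicates 1 to 3. The spread of the vehicle-treated mice was 3.65% of their mean, below the 14.9% that counting error gives, so it is closer than this depth can resolve. The FGF19-treated mice were between 2.10 and 2.86 times the mean of the vehicle-treated mice. Etv5 had a log2 fold change of 1.28 (standard error 0.18, edgeR, adjusted p = 0.00338), with a 95% interval from 1.84-fold to 3.22-fold, and the adjusted p was under 0.05 in 14 of 14 alternatives. The counts behind it were between 41 and 49 reads with vehicle and between 104 and 138 reads with FGF19. Etv5 made up 77.5 ± 2.84% of the level of the PEA3 group genes Etv1, Etv4 and Etv5 per exon length with vehicle and 82.3 ± 9.18% with FGF19 (SD, n = 3). Etv1 and Etv4 were below the filter, and Etv4 had 4, 4 and 6 reads with vehicle and 10, 7 and 24 reads with FGF19.

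The promoter windows of Dusp6 and Etv5 are shown because these are the called genes for which the sequence table used here holds a window, beside that of Ptpn11, which was not called and holds the most kinds of motif. They run from 250 bases before to 50 bases after a gene start, read 5′ to 3′ on the strand of the gene, and were taken from RefSeq for build GRCm38.p6, so their coordinates do not belong to the build of the counts. Windows were found for 8 of the 10 genes, that is for all but Dusp4 and Spry4. Capitals mark matches, on either strand, to the ETS motif CCGGAAG, the CRE motif TGACGTCA or the CCAAT box CCAAT, of which the last was added after the sequences had been seen.

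Dusp6, chr10:99262981-99263280, plus strand: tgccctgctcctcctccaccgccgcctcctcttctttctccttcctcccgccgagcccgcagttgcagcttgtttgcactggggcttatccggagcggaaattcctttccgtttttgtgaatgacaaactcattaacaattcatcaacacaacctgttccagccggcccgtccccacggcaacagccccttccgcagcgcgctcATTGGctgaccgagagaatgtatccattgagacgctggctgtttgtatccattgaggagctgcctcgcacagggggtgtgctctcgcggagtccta
Etv5, chr16:22439521-22439820, minus strand: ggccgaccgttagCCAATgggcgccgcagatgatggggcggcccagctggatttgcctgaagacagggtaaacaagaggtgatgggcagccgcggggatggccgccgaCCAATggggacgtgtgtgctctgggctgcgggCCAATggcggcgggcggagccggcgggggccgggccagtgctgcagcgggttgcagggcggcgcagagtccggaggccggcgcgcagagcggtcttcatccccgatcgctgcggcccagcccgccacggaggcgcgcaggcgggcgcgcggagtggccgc
Ptpn11, chr5:121191348-121191647, minus strand: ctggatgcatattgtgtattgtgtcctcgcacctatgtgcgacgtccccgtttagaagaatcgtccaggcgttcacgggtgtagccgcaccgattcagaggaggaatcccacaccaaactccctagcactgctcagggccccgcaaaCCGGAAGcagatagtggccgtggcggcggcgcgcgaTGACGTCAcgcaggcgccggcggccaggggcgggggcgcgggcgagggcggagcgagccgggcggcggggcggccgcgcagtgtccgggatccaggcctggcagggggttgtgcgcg

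The ETS motif was in the windows of Ptpn11 and Frs2, at 103 and 62 bases before the gene start, and in 8.86% of all 32851 windows. It was in no window of Dusp6 or Etv5, while Spry4, which was also called, had no window to search. Only the exact letters of each motif were searched, so other forms of it were not counted. The CRE motif was in the window of Ptpn11 and in 1.79% of all windows. The AP-1 motif TGANTCA and the STAT motif TTCNNNGAA were in none of the 9 windows of these genes, and in 7.81% and 8.3% of all windows. A CCAAT box was in the windows of Dusp6 and Etv5 and in 37.4% of all windows, and the window of Etv5 printed above held 3, where 3.37% of all windows held 3 or more. A second start of Etv5 has a window of its own, which held 1. The motifs do not overlap each other in these windows, and a match is a description of the letters only.

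Spry4, on the minus strand of chromosome 18 from 38745919 to 38760922, encodes a Sprouty protein, an inhibitor of receptor tyrosine kinase signalling to ERK. It was at 3.91, 4.93 and 5.90 CPM in vehicle replicates 1 to 3 and at 13.07, 14.01 and 15.57 CPM in FGF19 replicates 1 to 3. The FGF19-treated mice were between 2.66 and 3.17 times the mean of the vehicle-treated mice, and the groups did not overlap. Spry4 had a log2 fold change of 1.53 (standard error 0.165, edgeR, adjusted p = 0.000861), with a 95% interval from 2.24-fold to 3.74-fold. It had an adjusted p under 0.05 in 14 of 14 alternatives, with log2 fold changes between 1.39 and 1.69. Of the 12559 genes tested, 94 had a larger log2 fold change.

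Spry2, the Sprouty gene on the minus strand of chromosome 14 from 106291164 to 106296036, was close to the limit of what this depth can measure. It had 16, 14 and 25 reads in vehicle replicates 1 to 3 and 12, 21 and 14 reads in FGF19 replicates 1 to 3. The groups overlapped, the log2 fold change was -0.35 and its 95% interval ran from -1.14 to 0.45 (edgeR, adjusted p = 0.621). The upper end of this interval, 1.37-fold, lies below the lower end of that of Spry4. Counting error alone gives a spread of at least 23.4% at the vehicle level, where 30.9% was measured. It is a lower limit because both reads of a pair were counted.

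The Sprouty family was examined as a whole, since its members did not move together. Spry1 was the most abundant Sprouty transcript with vehicle, at 3.37 ± 0.642 RPKM, and was at 1.95 ± 0.253 RPKM with FGF19 (SD, n = 3). It fell by 0.79 on the log2 scale (edgeR, adjusted p = 0.0291), and was called in 2 of the 6 fits without a library. Spry4 rose from 1.07 ± 0.218 to 3.10 ± 0.275 RPKM (SD, n = 3) and became the most abundant. Its share of the family was between 19.8% and 24.3% in vehicle-treated mice and between 53.2% and 61.7% in FGF19-treated mice, while that of Spry1 was between 64.4% and 73.7% with vehicle and between 32.7% and 41.8% with FGF19. The summed level of the family was between 3.93 and 5.43 RPKM with vehicle and between 5.32 and 5.49 RPKM with FGF19, and these ranges overlapped. Spry3 had no reads in any library.

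Spred1, on the plus strand of chromosome 2 from 116947186 to 117005072, encodes a relative of the Sproutys that brings neurofibromin, which inactivates RAS, to the membrane. It was at 4.91, 3.28 and 5.46 CPM in vehicle replicates 1 to 3 and at 6.28, 7.90 and 4.66 CPM in FGF19 replicates 1 to 3. FGF19 replicates 1 and 2 were above all vehicle-treated mice, and FGF19 replicate 3 was below vehicle replicates 1 and 3. The log2 fold change was 0.46 (95% interval -0.08 to 1.00, edgeR, adjusted p = 0.292), and it was called in none of 14 alternatives, where it ranged from 0.27 to 0.64. The paralog Spred2 was at 2.54 ± 0.667 RPKM with vehicle and 4.29 ± 1.09 RPKM with FGF19 (SD, n = 3), with groups that did not overlap and an adjusted p of 0.0835 in edgeR.

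**Figure D3:**
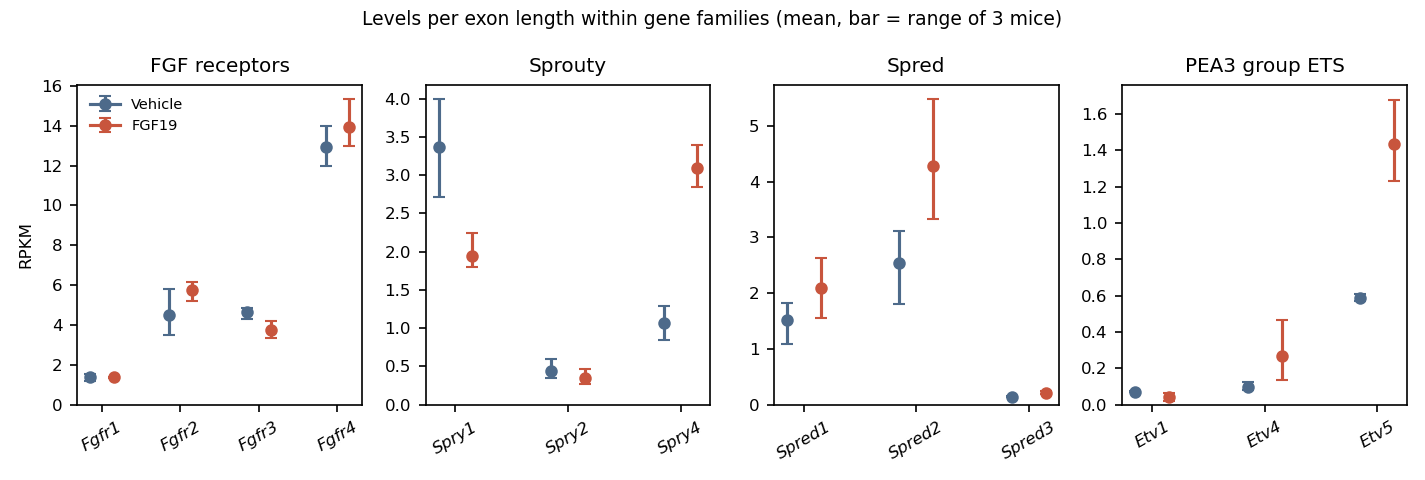
Levels per exon length, in RPKM on axes that start at 0, of the genes of 4 families that include members of the set, with circles for the mean and bars for the range of 3 mice, vehicle in blue and FGF19 in red. Spry1 and Spry4 change places as the most abundant Sprouty gene, while Fgfr4 has the highest level of Fgfr1 to Fgfr4 in both groups (Fgfrl1 is not plotted).

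Ordered by level per exon length in vehicle-treated mice, the genes were Ptpn11 at 13.3 RPKM, Fgfr4 at 13.0, Klb at 10.4, Dusp6 at 5.72, Frs2 at 3.27, Spred1 at 1.52, Spry4 at 1.07, Etv5 at 0.588, Dusp4 at 0.510 and Spry2 at 0.438 RPKM. Neighbours whose ranges overlapped were Ptpn11 and Fgfr4, Spred1 and Spry4, Etv5 and Dusp4, and Dusp4 and Spry2. With FGF19 the order changed at 3 places: Dusp6, at 9.998 RPKM, stood above Klb, at 7.67 RPKM, Spry4, at 3.10 RPKM, above Spred1, at 2.10 RPKM, and Fgfr4 above Ptpn11, of which only the last was a change between genes whose ranges overlapped after treatment. Over the 6 libraries, 72.8% of the genes tested were below Fgfr4 in RPKM and 8.15% were below Spry2.

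Vehicle replicate 2 was the lowest vehicle-treated mouse for 8 of the 10 genes and vehicle replicate 1 the highest for 6, and FGF19 replicate 3 was the lowest FGF19-treated mouse for 5 and the highest for 3, namely Fgfr4, Spry4 and Dusp4. Without FGF19 replicate 3 the same 3 genes were called, and without vehicle replicate 2 Klb was called in addition.

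The rest of the pathway was examined in 4 lists of 91 genes, also chosen with earlier results of these data known. In these lists 90 genes were found under their symbols, 79 were tested, 7 were higher and 3 were lower at an adjusted p under 0.05, which is to be read beside the 4.56% and 2.84% of all genes tested. All of these calls were lost without FGF19 replicate 2, where 0 genes were called. The calls numbered 1 higher and 4 lower without vehicle replicate 1, 3 and 2 without vehicle replicate 2, 1 and 1 without vehicle replicate 3, 2 and 1 without FGF19 replicate 1, and 12 and 5 without FGF19 replicate 3. Of the 10 called genes of these lists, Sdc2 and Myc were called in 4 of the 6 fits without a library, Gpc1, Shc1 and Dusp8 in 3, Spry1 and Dusp10 in 2, and Fgf21, Rps6ka1 and Ccnd1 in 1. The members Spry4 and Etv5 were called in each of the 6 fits.

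Among 13 tested receptors and ligands, 2 were higher and 1 was lower, with a median log2 fold change of -0.02. The glypican Gpc1 and the syndecan Sdc2 carry heparan sulfate, to which FGFs bind. Gpc1 rose from 9.54 ± 1.40 to 15.1 ± 2.37 CPM (SD, n = 3; edgeR, adjusted p = 0.0361), and Sdc2 fell from 213 ± 1.42 to 157 ± 11.4 CPM (SD, n = 3; edgeR, adjusted p = 0.0158). Fgf21, which encodes a hepatic hormone that also signals through beta-Klotho, was at 7.95, 5.72 and 5.76 CPM with vehicle and at 19.2, 16.4 and 8.37 CPM with FGF19, with a log2 fold change of 1.18 (edgeR, adjusted p = 0.0361). Fgf15, the mouse counterpart of the injected hormone, and Fgf23 had no reads in any library.

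Of 27 tested adaptors and kinases of the ERK cascade, 2 were higher and 0 were lower, and the median log2 fold change was 0.02. Shc1, an adaptor between receptors and GRB2, rose from 46.4 ± 2.06 to 64.4 ± 4.43 CPM (SD, n = 3; edgeR, adjusted p = 0.0132), and Rps6ka1, a kinase activated by ERK, from 18.2 ± 0.593 to 23.3 ± 0.668 CPM (SD, n = 3; edgeR, adjusted p = 0.0458). Of the other receptors that feed the cascade, such as the EGF, HGF and insulin receptors, 19 were tested and 0 were called in edgeR's quasi-likelihood test, of which Kit and Flt4 had an unadjusted p under 0.05.

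The list of other ERK feedback and output genes held the most calls, with 3 of 20 tested genes higher and 2 lower and a median log2 fold change of 0.19. The higher genes were Dusp8 and Dusp10, phosphatases known to prefer the stress-activated MAP kinases JNK and p38, and Ccnd1, the cyclin D1 gene. Dusp8 had 18, 15 and 5 reads with vehicle and 102, 60 and 38 reads with FGF19, and Dusp10 went from 3.53 ± 0.478 to 5.57 ± 0.356 CPM (SD, n = 3). The lower genes were Spry1, given above, and Myc, at 12.4 ± 5.16 CPM with vehicle and 4.63 ± 0.378 CPM with FGF19 (SD, n = 3). The immediate early gene Egr1 did not pass the test (edgeR, adjusted p = 0.0749), with 25.2, 13.5 and 23.2 CPM with vehicle and 107, 62.9 and 20.9 CPM with FGF19, so that FGF19 replicate 3 lay within the vehicle range.

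**Figure D4:**
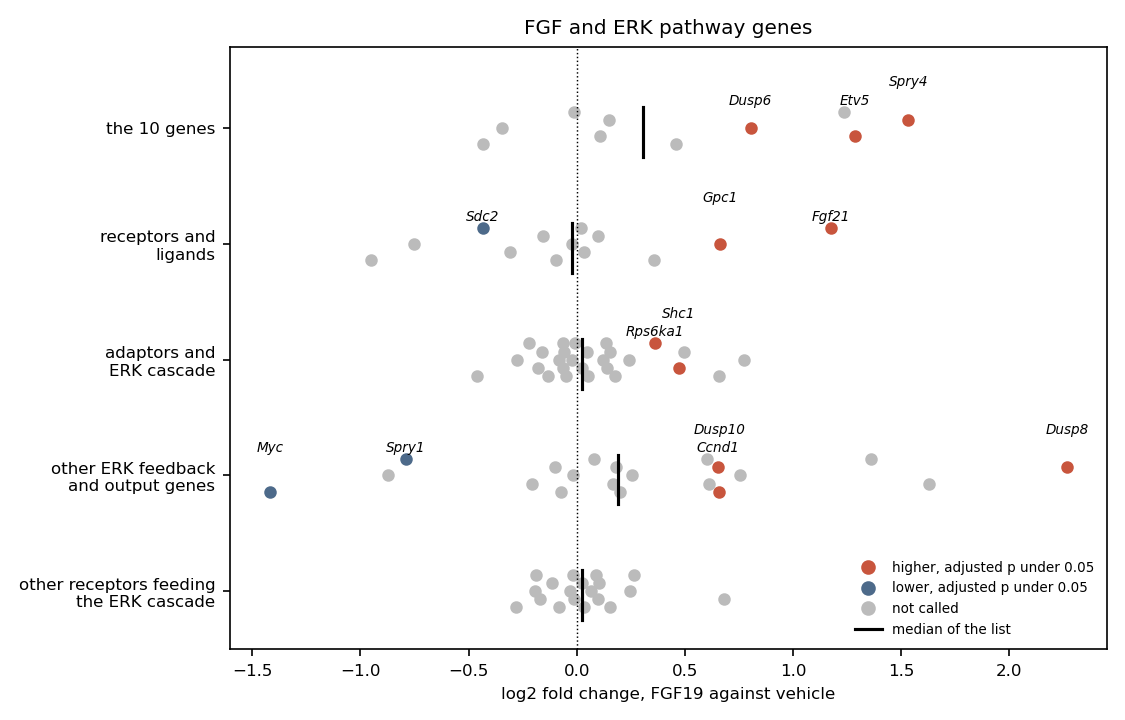
Log2 fold changes after FGF19 treatment of the 10 genes and of the tested genes of the 4 pathway lists, 1 dot a gene, in red where higher and in blue where lower at an adjusted p under 0.05, with the median of each list as a black line. The medians of the 4 lists lie between -0.02 and 0.19, and that of the 10 genes at 0.30.

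Markers of other liver cell types were compared as sums of CPM, because Sprouty and Dusp genes are also expressed outside hepatocytes. Of 8 sinusoidal endothelial markers none was called, and their sum was between 307 and 330 CPM with vehicle and between 303 and 323 CPM with FGF19. The sums were between 374 and 485 and between 344 and 402 CPM for 8 stellate markers (1 lower, Colec11). They were between 72.8 and 90.5 and between 56.0 and 86.8 CPM for 7 cholangiocyte markers. For 9 Kupffer cell and monocyte markers (Marco and Cd68 higher) they were between 185 and 233 and between 194 and 226 CPM. This sum hides opposite changes, as Marco went from 6.14 to 30.1 CPM. Vsig4, Clec4f and Cd5l had log2 fold changes of -0.54, -0.29 and -0.22, and were not called. Emr1, Csf1r and Ccr2 had log2 fold changes of 0.36, 0.04 and 1.03, and were not called either. For Vsig4 the groups did not overlap. The neutrophil sum, over 7 markers of which 3 were tested and S100a9 was higher, moved with treatment, from between 3.14 and 3.77 to between 7.10 and 10.1 CPM. The adipocyte sum, between 9.90 and 22.7 and between 22.4 and 34.0 CPM, was almost entirely Cidec, while Adipoq had at most 2 reads and Plin1 at most 1 read in a library and Lep had 0, and the lymphocyte sum was between 4.76 and 7.69 and between 3.94 and 5.97 CPM. The red cell sum was between 57.3 and 78.8 and between 43.6 and 57.6 CPM, and was almost entirely Alas2, with 4 globin genes at 0 in every library. These 4 genes overlap in pairs in the annotation (Hba-a1 with Hba-a2, and Hbb-b1 with Hbb-b2), and reads on exons of more than 1 gene were not counted, so their zeros do not measure globin RNA. The pancreatic acinar sum was between 5.67 and 7.04 and between 5.57 and 5.74 CPM and was almost entirely Cela1, while Amy2a5, which overlaps other amylase genes in the same way, was listed at 0. The part of these marker sums in the rise of Spry4, Dusp6 and Etv5 was not tested.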

How the data were processed

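Liver RNA of 3 vehicle-treated and 3 FGF19-treated C57BL/6 mice was analysed, with groups and replicate numbers taken from the sample labels. The deposited counts are raw reads per gene, which the authors made with STAR (2.5.3a in the submitters' processing notes, another version in the study's methods) and featureCounts 1.5.2 on mm9 exons, without strand, with mates counted as separate reads and multi-mapping reads left out. Exon lengths are those of the same files. The authors' table of their own comparison (log2 fold changes, mean log2 CPM, p-values) was not used.

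Counts were filtered with edgeR 4.0.16 (filterByExpr), scaled by TMM and tested by its quasi-likelihood test in R 4.3.3, without covariates, as the study names an edgeR pipeline without the kind of test. The test was tested on simulated data. An adjusted p under 0.05 over all genes was a call, and intervals come from the standard error of the fit. All members, and the called genes of the pathway lists, were named. Other paralogs and pathway genes (such as Egr1, Spred2, Etv4, Kit and Flt4) were named after their values had been seen. The members and lists were chosen with earlier results of these data known. Alternatives were DESeq2 1.42.0, limma-voom (limma 3.58.1), the likelihood ratio test, other scalings and filters, a replicate block and each library left out. No pair of libraries agreed within sampling noise (chi-square per degree of freedom at least 8.69). A count of 0 allows up to 3 counts, and such limits cover counting error only. Whether the mice came from separate cages or litters is not given in the labels.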

Additional observations from a re-analysis of the deposited data

How the results depend on the processing

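Spry4 and Etv5 were higher and called in all 14 alternatives and Dusp6 in 13, Dusp4 was called as well by DESeq2 and the likelihood ratio test, while Fgfr4, Frs2, Ptpn11, Spry2 and Spred1 were called in none. The number of members lower at an adjusted p under 0.05 was 0, and 1 with the likelihood ratio test; without each library in turn it was between 0 and 1. Over all genes, the likelihood ratio test gave 579 lower genes and p under 0.01 gave 626. The main fit used here gave 357 at an adjusted p under 0.05. The pathway lists held 11 higher and 5 lower genes with the likelihood ratio test and 11 higher at p under 0.01, in place of 7 and 3. Without each library in turn, between 236 and 1015 genes were higher and between 91 and 926 lower, and between 0 and 12 pathway genes were higher and between 0 and 5 lower, with the fewest lower genes without FGF19 replicate 2 and the most without FGF19 replicate 3, and the cause was not tested. With the replicate block 370 genes were higher and 164 lower, 2 pathway genes were higher and 1 lower, and the same 3 members were called. The deviations of same-numbered mice had correlations across genes of -0.06, -0.26 and -0.23. Pairs with unlike numbers had correlations between -0.15 and 0.28. Deviations were taken from the mean of 3 mice, so these values cannot decide whether the numbers pair mice. The labels do not say so. The scalings moved the median of all genes by less than 0.01 on the log2 scale. The stricter filter left Dusp4 and Spry2 untested. The lowest counts behind a member were those of Spry2, with 12 to 25 reads, and Dusp4, with 10 to 72 reads.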
